A study of Anas platyrhynchos with 6 samples.

Results

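The libraries described here are the 2 of 6 duck ovary libraries in which the germ cell RNA helicase gene DDX4 lay under 1 FPKM (fragments per kilobase of transcript, scaled to library depth), set beside the other 4, in which it reached 10 FPKM or more. They are called DDX4-poor (HEN replicates 2 and 3) and DDX4-rich (HEN replicate 1 and LEN replicates 1, 2 and 3). Throughout, DDX4-poor values are printed for HEN replicate 2 and then 3, and DDX4-rich values for HEN replicate 1 and then LEN replicates 1, 2 and 3. DDX4 measured 0 and 0.208 FPKM in the DDX4-poor and 14.3, 27.8, 16.1 and 29.4 FPKM in the DDX4-rich libraries. No library lay between 0.208 and 14.3 FPKM, so that any limit between these values gives the same sets. The libraries were chosen by this readout, so the contrast between them is a description of 2 against 4 libraries, with no test and no p-value.

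All 6 libraries came from 71-week-old ducks (Anas platyrhynchos) of a full-sib family, 3 from the group of high egg number (HEN) and 3 from that of low egg number (LEN), 1 library per bird. Feed had been withheld for 12 hours before slaughter in both egg number groups, and total RNA was taken from frozen ovarian tissue. No strain, allele or treatment distinguishes the birds in the labels, and the labels do not say which region of the ovary or which follicle stages each piece held. Both DDX4-poor libraries carry the HEN label, and HEN replicate 1 is the single DDX4-rich library that does.

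An ovary of a laying bird holds oocytes of many sizes, each enclosed by granulosa cells and, outside them, by vascular theca layers, in a stroma with blood vessels, smooth muscle and immune cells. Oocytes store large amounts of maternal messenger RNA, build the egg coat and take up yolk precursors through a receptor of the low density lipoprotein receptor family. The matrix around follicles is remodelled by metalloproteinases, and macrophages and lysosomal proteases clear spent tissue. A bulk library mixes all of these, and in it fewer cells of a type and less RNA per cell cannot be told apart.

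Of the deposited transcripts, 13328 averaged 1 FPKM or more and were compared. The inferred depth was 18756660 and 18213744 fragments in the DDX4-poor libraries and 18331418 to 19831761 in the DDX4-rich ones, so the sets overlapped in depth. FPKM of at least 1 was reached by 11877 and 12042 transcripts in the DDX4-poor libraries and by 13210 to 13352 in the DDX4-rich ones. A transcript is called lower where the higher of the DDX4-poor libraries lay at least 1 unit of log2(FPKM + 1) below the lowest DDX4-rich library, and higher where the mirror image held. By this rule 2273 transcripts (17.1% of those tested) were called lower and 335 (2.51%) were called higher. Genes are named by a rule that favours wide gaps, and CPEB1, CPEB2, MOS, PIWIL1, HENMT1, SYCP1, TOP2A, PCNA, STAR, FDX1, FSHR, CDH19, TIMP2, COL3A1, MARCO, PGR and the unnamed transcripts lie outside that rule and were chosen after their values were seen. Without a minimum gap, 6332 transcripts (47.5%) lay below without overlap and 2608 (19.6%) above. A gap of at least 2 units was found for 812 transcripts (6.09%) below and 47 (0.353%) above.

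The split between lower and higher calls depended on the scaling. The median difference between the sets over all transcripts was −0.36 log2 units in FPKM as deposited. After scaling to the upper quartile that median was 0, and 1609 transcripts were called lower against 682 called higher, so the lower calls made up 70.2% of all calls in place of 87.2%. The DDX4-poor libraries were also more concentrated: 484 and 544 transcripts held 50% of their FPKM, against 1093 to 1326 in the DDX4-rich libraries. The transcripts called lower took 3.21% and 3.44% of the FPKM of the DDX4-poor libraries and 17.7% to 23.6% of the others. Those called higher took 11.7% and 12.0% against 1.91% to 3.03%. The widest gaps lay below, with 55 transcripts at 5 units or more against 2 above. List counts under another setting are to be read against all transcripts under that setting. Of the 13328 transcripts, 1601 were lower and 704 higher with trimmed means, and 1176 and 832 with quantile normalization. The counts were 2709 and 601 without HEN replicate 2, and 2779 and 578 without HEN replicate 3.

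**Figure D1:**
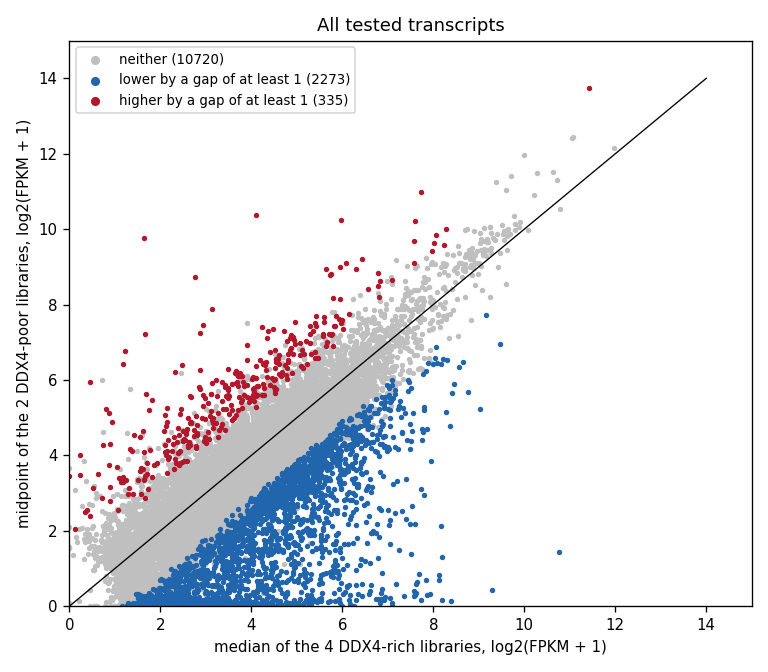
Each point is 1 of the 13328 transcripts, with the median of the 4 DDX4-rich libraries on the x axis and the midpoint of the 2 DDX4-poor libraries on the y axis, both in log2(FPKM + 1); the line marks equal values. The 2273 transcripts called lower (blue) fan out along the bottom, where many lie near 0 on the y axis, and the 335 called higher (red) lie in a thinner band above the line.

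The egg coat and the oocyte's own regulators were at or near 0 in the DDX4-poor libraries. ZP2 and ZP4 encode zona pellucida glycoproteins of the coat around the egg, and were the 2 of 6 fixed egg coat genes with a row. ZP2 was at 0.152 and 1.72 FPKM in the DDX4-poor libraries and at 219, 309, 252 and 704 FPKM in the DDX4-rich libraries. ZP4 measured 0.0985 and 0.608 FPKM in the DDX4-poor and 74.2, 102, 92.4 and 275 FPKM in the DDX4-rich libraries. Both genes were lowest in HEN replicate 2 and highest in LEN replicate 3, and no DDX4-poor value came near a DDX4-rich one. All 4 tested oocyte factors were called lower, of 5 with a row and 16 fixed, beside 17.1% of all transcripts. Members under 1 FPKM in both DDX4-poor libraries passed the filter only through the DDX4-rich ones. LHX8, a homeobox transcription factor of oocytes, was listed at 0 in both DDX4-poor libraries and at 19.5, 23.4, 17.2 and 33.6 FPKM in the DDX4-rich libraries. BMP15, the growth factor that oocytes secrete to the granulosa, was at 1.12 and 0.538 FPKM in the DDX4-poor libraries and at 29.9, 49.5, 24.5 and 58.8 FPKM in the DDX4-rich libraries. KPNA7, a nuclear import adaptor of mammalian oocytes, lay at 0.0673 and 0.347 against 166, 219, 139 and 395 FPKM, and TAF4B, a germ cell subunit of the basal transcription machinery, at 0.787 and 0.8598 against 29.5, 23.3, 29.3 and 31.8.

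Of 14 tested germ cell RNA regulators 13 were called lower, against 17.1% of all transcripts, with a list median of −3.94 log2 units relative to all transcripts. Of the 14, 4 reached 1 FPKM in each DDX4-poor library, and most of the others passed the filter only through the DDX4-rich libraries. The share over all transcripts does not correct for this. DAZL binds RNA in germ cells. DAZL measured 0 and 0.124 FPKM in the DDX4-poor and 89.4, 142, 85.98 and 149 FPKM in the DDX4-rich libraries. The cytoplasmic polyadenylation factor CPEB1 lay at 2.34 and 2.12 against 55.4, 95.5, 56.97 and 109 FPKM. BTG4, which recruits the deadenylase that clears maternal messages in mice, lay at 0.234 and 0.321 against 160.2, 240.4, 152 and 371 FPKM. The meiotic kinase genes WEE2 and MOS, which hold and time oocyte arrest in mammals, showed the same separation: WEE2 at 0.0627 and 0.2905 against 98.8, 171, 102 and 215 FPKM, and MOS at 0.102 and 0.157 against 65.9, 92.3, 51.3 and 94.8 FPKM. In each of these genes the sets were far apart, and LEN replicate 3 held the highest value. CPEB2 was the member not called, at 5.41 and 4.69 against 3.23, 5.84, 4.49 and 2.94 FPKM, with overlapping sets.

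The piRNA pathway, by which PIWI proteins and their small RNAs silence transposons in the germ line, had 10 of 11 tested members called lower, DDX4 itself among them, beside 17.1% of all transcripts. MAEL, a factor of piRNA production, was at 0.566 and 0.179 FPKM in the DDX4-poor libraries and at 33.3, 46.6, 31.5 and 70.5 FPKM in the DDX4-rich libraries. The Tudor domain genes that build germ granules were lower throughout: TDRD9 lay at 0.106 and 0.0932 against 14.3, 24.02, 12.9 and 24.96 FPKM, and both rows of TDRD6, which overlap the position of another gene, were called lower. PIWIL1, an Argonaute protein of the germ line, measured 1.06 and 1.01 FPKM in the DDX4-poor and 26.3, 34.6, 23.2 and 33.9 FPKM in the DDX4-rich libraries. Its values did not overlap between the sets, and both DDX4-poor libraries kept a measurable level. HENMT1, which methylates piRNA ends, was the exception at 0.275 and 0.6603 against 0.859, 2.99, 0.6498 and 1.12 FPKM, all low. DDX4, the gene that chose the sets, belongs to this list and to the RNA regulator list. In the DDX4-poor libraries 3 and 2 of the 11 members reached 1 FPKM, so this count too was shaped by the filter.

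Meiotic genes were split. Of 16 tested, 4 were called lower (25%), which is not far from the 17.1% of all transcripts, and none was called higher. BRDT, a testis-type bromodomain protein, lay at 0.05702 and 0.0783 FPKM in the DDX4-poor and 50.5, 63.2, 58.5 and 112 in the DDX4-rich libraries. MND1, which promotes strand exchange between homologous chromosomes, lay at 0.0863 and 1.33 against 20.8, 16.8, 23.5 and 30.5 FPKM. SYCP1, the transverse filament protein of the synaptonemal complex, lay at 1.61 and 0.782 against 1.83, 0.994, 1.14 and 1.46 FPKM, with overlapping sets. HFM1, a helicase needed for crossovers, lay the other way without reaching the call, at 8.44 and 6.72 against 3.25, 0.266, 3.13 and 0.305 FPKM.

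The genes with the widest gaps below included several that are not textbook germ line genes. NRN1 encodes neuritin, a membrane-anchored protein known from neurite outgrowth. NRN1 was at 0.456 and 0.235 FPKM in the DDX4-poor libraries and at 606, 638, 472 and 949 FPKM in the DDX4-rich libraries. Its row lies on scaffold KB742490.1 from 1566217 to 1566450 in the deposited coordinates. CCNA1, the cyclin A of meiotic cells, lay at 0.367 and 0.151 against 243, 239.97, 220.2 and 274 FPKM and varied by little among the DDX4-rich libraries. TMOD1, which caps the slow-growing ends of actin filaments, lay at 0.2503 and 1.08 against 297, 251, 262 and 382 FPKM. CAV3, the caveolin of muscle, lay at 0.116 and 0.598 against 193, 187, 174 and 313 FPKM, and BIRC7, of the inhibitor of apoptosis family, at 0.0474 and 0.3904 against 160.4, 164, 135 and 263. In these 5 genes the sets were far apart and LEN replicate 3 was highest. TMEM171, C14orf37, CCDC201, SYPL1 and ZAR1L completed the 15 widest named gaps, and the range over DDX4-rich libraries in these 5 was 65.6 to 421 FPKM. The widest gap of all, 8.45 log2 units, belonged to an unnamed protein-coding transcript, ENSAPLT00000002746, with 0.636 and 3.58 against 1915, 1599, 1776 and 1694 FPKM.

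**Figure D2:**
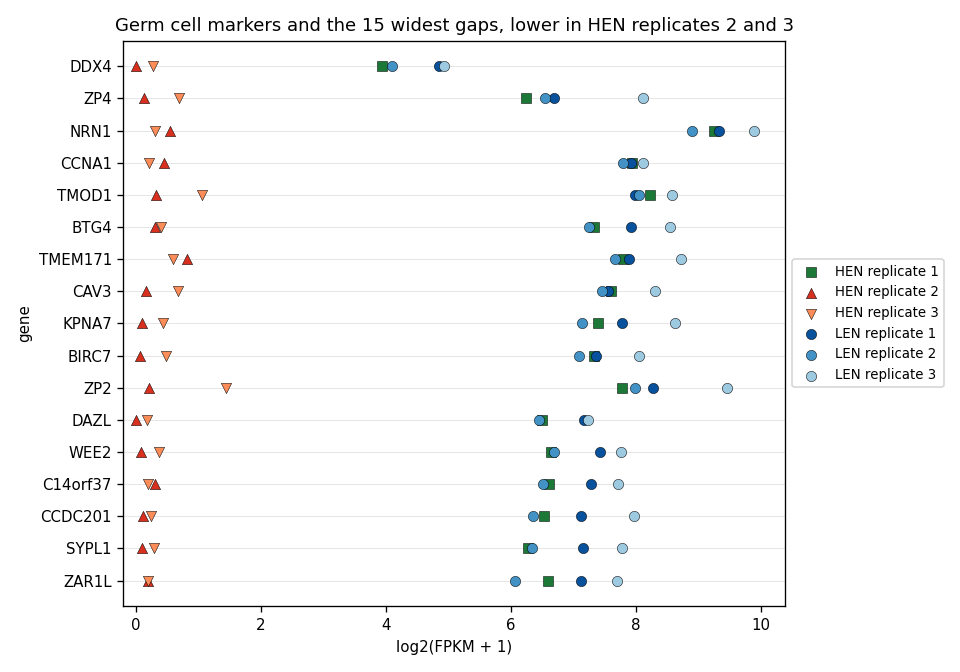
Each row is a gene, each point a library, on a log2(FPKM + 1) axis; the rows are DDX4, ZP4 and the 15 named genes with the widest gaps below. The 2 triangles of HEN replicates 2 and 3 lie near 0 in every row, while HEN replicate 1 (square) lies among the circles of the LEN libraries or close to them.

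Counted over libraries, 141 transcripts were listed at 0 in both DDX4-poor libraries and at 1 FPKM or more in all DDX4-rich ones, and 3 the other way round. An exact 0 allows up to 3 fragments, which equals 0.151 to 0.165 FPKM on a transcript of 1 kb, counting error only. Under 1 FPKM in both DDX4-poor libraries and at least 10 in all others were 192 transcripts, and 2 the other way round, DUOX2 and an unnamed one. Unnamed transcripts made up 25.6% of those called lower, 23.0% of those called higher and 24.2% of those tested.

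Cell division genes were largely lower. Of 34 tested genes of mitosis and DNA replication, 26 were called lower, beside 17.1% of all transcripts, and the list's summed FPKM was 218 and 353 in the DDX4-poor libraries against 1854 to 2646. AURKA, the kinase of spindle poles, measured 0.638 and 3.22 FPKM in the DDX4-poor and 169.6, 195, 144 and 239.9 FPKM in the DDX4-rich libraries. PLK1, the polo-like kinase that drives entry into division, lay at 0.954 and 4.07 against 118, 142, 123 and 142 FPKM, with a row that overlaps another gene. BUB1B, of the spindle checkpoint, lay at 0.277 and 2.605 against 70.1, 83.9, 82.7 and 105 FPKM, and ECT2, which positions the cleavage furrow, at 0.563 and 1.3001 against 54.8, 63.2, 48.8 and 71.2. HEN replicate 3 held more of all 4 than HEN replicate 2. TOP2A, the topoisomerase of dividing cells, did not separate, at 0.971 and 7.54 against 8.08, 3.82, 6.46 and 3.35 FPKM, nor did PCNA, the clamp of the replication fork, at 62.1 and 84.5 against 90.3, 93.05, 80.2 and 119.

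Of 14 tested genes of steroid synthesis 8 were called lower and none higher, beside 17.1% and 2.51% of all transcripts. CYP17A1, the enzyme that turns progestins into androgens in theca cells, showed the widest gap. CYP17A1 was at 0.0945 and 0.146 FPKM in the DDX4-poor libraries and at 239.6, 521, 33.5 and 185 FPKM in the DDX4-rich libraries. The DDX4-rich libraries themselves ranged over 33.5 to 521 FPKM, with LEN replicate 2 lowest. HSD17B2, which oxidises estradiol to estrone, measured 0.0455 and 0.0936 FPKM in the DDX4-poor and 24.1, 42.3, 28.2 and 62.4 FPKM in the DDX4-rich libraries. CYP19A1, the aromatase that makes estrogen, lay at 2.61 and 5.69 against 46.7, 40.7, 70.7 and 41.5 FPKM, and AKR1D1, a steroid 5-beta-reductase, at 13.1 and 4.33 against 213, 197, 210.4 and 480.04. STAR, which carries cholesterol into mitochondria, lay at 3.16 and 7.92 against 191, 253, 17.9 and 65.05 FPKM, again lowest of the DDX4-rich set in LEN replicate 2. FDX1, the electron donor of the mitochondrial steroid enzymes, was not called, at 25.7 and 27.5 against 27.7, 29.7, 32.02 and 32.5 FPKM.

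Of 16 tested genes of cholesterol synthesis 9 were called lower, beside the same 17.1%. NSDHL, a demethylation enzyme of the late pathway, lay at 3.08 and 4.39 against 86.5, 68.3, 95.7 and 117 FPKM. FDFT1, squalene synthase, lay at 2.95 and 4.39 against 48.8, 46.3, 53.3 and 42.8, and LSS, which closes the sterol rings, at 1.4995 and 2.75 against 28.4, 35.1, 28.4 and 34.7. INSIG1, which holds back sterol synthesis, lay on the opposite side without reaching the call, at 167 and 67.8 against 38.2, 43, 44.7 and 39.9 FPKM.

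Genes of lipid uptake and storage went both ways. VLDLR, the avian oocyte receptor for yolk precursors, was called lower. VLDLR was at 30.1 and 43.9 FPKM in the DDX4-poor libraries and at 555, 485, 458 and 624 FPKM in the DDX4-rich libraries. The sets did not overlap, and LEN replicate 3 was again highest. DGAT2, which makes triglycerides, lay at 3.899 and 5.37 against 142, 95.4, 142 and 208 FPKM. CD36, a scavenger receptor for fatty acids and oxidised lipoprotein, was called higher, at 52.2 and 59.2 against 5.49, 7.08, 11.9 and 3.57 FPKM, as was FABP4, the fatty acid carrier of fat cells and macrophages, at 117 and 112 against 21.6, 31.9, 52.9 and 24.9. Counted over the list, 2 of 21 tested genes were lower and 2 higher, beside 17.1% and 2.51% of all transcripts. With the upper quartile or trimmed means 5 were higher, and without HEN replicate 2 4 were lower and 5 higher.

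Granulosa markers were present in all 6 libraries and gave no single direction. FSHR, the receptor for follicle-stimulating hormone, lay at 22.2 and 13.6 FPKM in the DDX4-poor libraries and at 18.9, 25.3, 19.8 and 25.4 in the others, with overlapping sets. FOXL2, the transcription factor that keeps granulosa identity, was called lower at 33.1 and 55.2 against 175, 152, 154 and 153 FPKM, with a row that overlaps another gene. EMX2, a homeobox gene of the urogenital tract, lay at 7.83 and 9.59 against 69.04, 91.4, 77.2 and 73.9 FPKM. GJA1, the connexin that couples granulosa cells, lay higher without reaching the call, at 267 and 175 against 80.9, 79.9, 92.9 and 79.9 FPKM, and its row also overlaps another gene. The list's summed FPKM was 760 and 699.9 in the DDX4-poor libraries and 711 to 754 in the DDX4-rich ones. The list shares 9 of its 15 tested genes with other lists, among them LHX9, called lower and also a surface epithelium marker. Of 15 tested genes 5 were called lower, beside 17.1% of all transcripts, and none higher. The calls became 2 lower and 3 higher with the upper quartile, 3 and 3 with trimmed means and 5 and 3 without HEN replicate 3. The list median lay 0.2 above that of all transcripts, a sign that turned when low transcripts were left out by a mean of at least 5 FPKM or when HEN replicate 2 was left out.

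Several epithelial and neural markers were lower. EPCAM, an adhesion protein of epithelia, lay at 3.07 and 2.96 against 97.2, 103, 99.2 and 116 FPKM. ESRP1, an epithelial splicing factor, lay at 0 and 0.662 against 16.8, 16.5, 14.4 and 13.4, and MSLN, a marker of mesothelium, at 0.159 and 0.0327 against 4.86, 6.53, 5.43 and 13.8. Of 9 tested surface epithelium markers 4 were called lower, beside 17.1% of all transcripts, while KRT7, a simple keratin, lay the other way without a call at 78.5 and 52.7 against 49.4, 14.04, 32.5 and 25.8 FPKM. Among 11 tested nerve and glia genes 6 were called lower, 3 with a mean of at least 5 FPKM and 2 after quantile normalization. SYT1 of this list lay the other way without a call, at 12.7 and 7.49 against 5.48, 5.28, 5.49 and 5.14 FPKM. NEFL, the light neurofilament protein, measured 1.503 and 6.77 FPKM in the DDX4-poor and 287, 287, 235 and 430.3 FPKM in the DDX4-rich libraries. NEFM, the medium neurofilament protein, lay at 0.285 and 0.469 against 42.6, 84.8, 22.5 and 96.7 FPKM, and the glial gene CDH19 at 0.802 and 0.115 against 5.102, 6.43, 3.03 and 3.099. Cilium genes held 7 of 26 called lower (26.9%, beside 17.1% of all transcripts), 3 after quantile normalization, among them FOXJ1, the master regulator of motile cilia, at 0.08096 and 0.0834 against 11.1, 18.8, 6.05 and 29.2 FPKM. The chromaffin and adrenal list held 1 of 4, the ACTH receptor gene MC2R, listed at 0 in both DDX4-poor libraries and at 3.86, 2.48, 3.91 and 8.98 FPKM in the others.

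**Figure D3:**
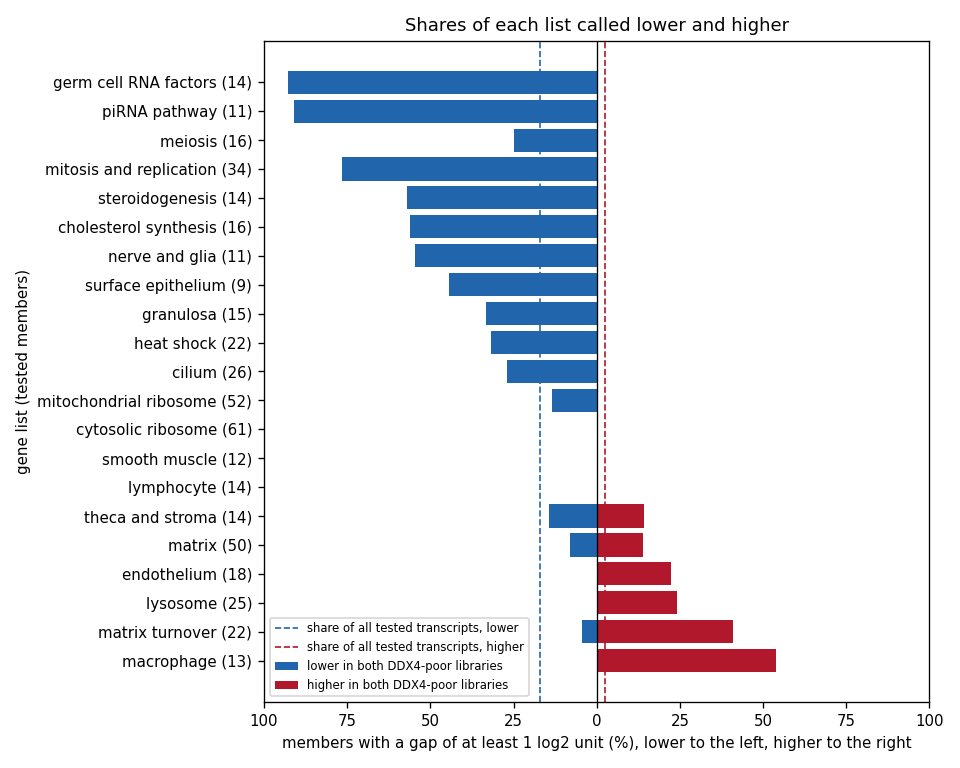
Bars give the percent of tested members of 21 gene lists called lower (blue, to the left) and called higher (red, to the right) in the DDX4-poor libraries, with tested members in brackets; dashed lines mark 17.1% and 2.51%, the shares over all transcripts. The germ cell and piRNA lists stand at 92.9% and 90.9% lower, and the macrophage and matrix turnover lists at 53.8% and 40.9% higher.

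On the other side, matrix-degrading enzymes stood out by their levels in the DDX4-poor libraries. Of 22 tested genes of matrix turnover 9 were called higher and 1 lower, beside 2.51% and 17.1% of all transcripts. MMP13, a collagenase that cuts fibrillar collagen, had the widest gap above. MMP13 was at 1338 and 570.4 FPKM in the DDX4-poor libraries and at 1.08, 2.48, 9.29 and 1.79 FPKM in the DDX4-rich libraries. Even the lower DDX4-poor value was 61.4 times the highest DDX4-rich one, which belonged to LEN replicate 2. MMP9, a gelatinase also made by granulocytes and macrophages, lay at 502 and 362 against 6.51, 5.18, 43.1 and 5.1996 FPKM, again with LEN replicate 2 highest of the DDX4-rich libraries. MMP11, or stromelysin-3, lay at 337 and 166 against 8.04, 7.55, 13.4 and 5.13 FPKM. The 3 rows of MMP2, another gelatinase, were all called higher, at 374 to 596 FPKM against 33.8 to 75.9. PLAU, the urokinase that activates plasminogen, was the gene called lower, at 13.5 and 5.26 against 61.9, 103, 67.002 and 97.1 FPKM. TIMP2, an inhibitor of metalloproteinases, was also called higher, at 207 and 141 against 62.7, 50.1, 64.2 and 50.6 FPKM.

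Next by width of the gap above was STC1. STC1, stanniocalcin, a secreted glycoprotein first known as a calcium-regulating hormone of fish, lay at 102 and 114 FPKM in the DDX4-poor libraries and at 1.04, 0.409, 2.18 and 1.65 in the others, and its row overlaps another gene. DUOX2, a dual oxidase that releases hydrogen peroxide, and its maturation factor DUOXA2 were both called higher. DUOX2 measured 92.1 and 40.4 FPKM in the DDX4-poor and 0.341, 0.224, 0.413 and 0.6002 FPKM in the DDX4-rich libraries. DUOXA2 lay at 128 and 55.1 against 0.688, 1.08, 1.48 and 2.91 FPKM, and both genes stood higher in HEN replicate 2 than in HEN replicate 3. PTGS2, the inducible enzyme of prostaglandin synthesis, lay at 141 and 160.5 against 8.64, 4.25, 7.08 and 5.67 FPKM, and the neutrophil attractant IL8 at 56.4 and 23.3 against 1.08, 0.4898, 1.21 and 0.467. SFRP4, a secreted inhibitor of WNT signals, lay at 162 and 135 against 2.62, 1.11, 6.82 and 1.79 FPKM. MGP, a matrix protein that prevents calcification, was the most abundant of the named genes above. MGP was at 2907 and 1416 FPKM in the DDX4-poor libraries and at 217, 183, 207 and 228 FPKM in the DDX4-rich libraries. RASD1, PRG4, SLC26A3, ADRA2B and RAB31 completed the 15, at 9.26 to 224 FPKM in the DDX4-poor and 0.233 to 24.5 in the DDX4-rich libraries. The most abundant transcript of both DDX4-poor libraries was an unnamed one, ENSAPLT00000007510, at 12766 and 14910.0 FPKM against 2833, 2169, 3286 and 2626. Another unnamed one, ENSAPLT00000007080, lay at 1397 and 1265 against 19.9, 9.53, 51.3 and 13.3 FPKM.

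**Figure D4:**
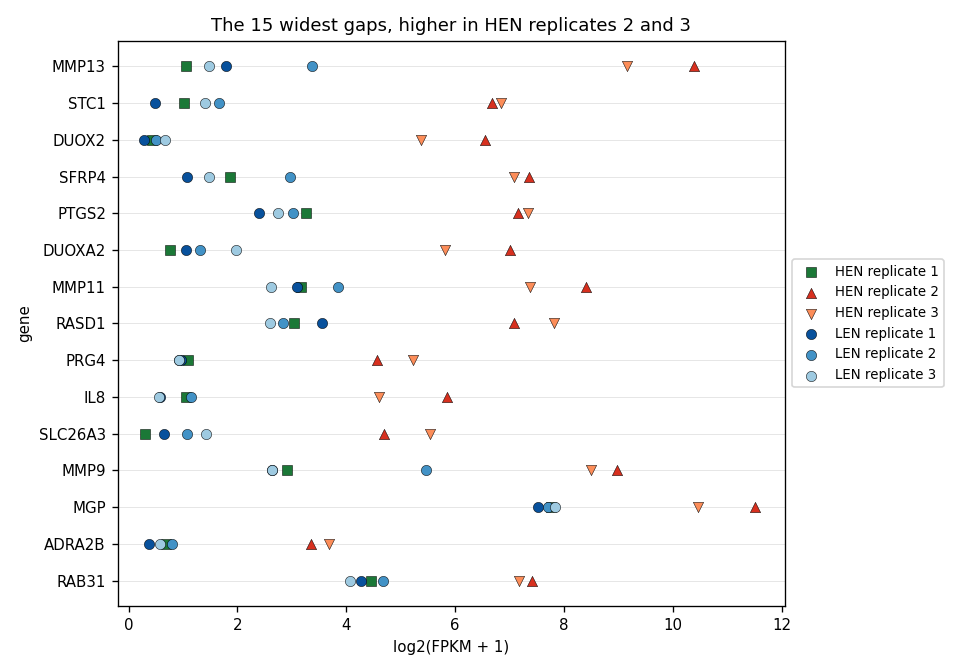
Each row is 1 of the 15 named genes with the widest gaps above, each point a library, on a log2(FPKM + 1) axis. HEN replicates 2 and 3 (triangles) lie to the right in every row, and HEN replicate 1 (square) lies with the LEN circles; MMP13 and MMP9 have a LEN circle, that of replicate 2, to the right of the other DDX4-rich points.

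Of 50 tested matrix structural genes 7 were called higher and 4 lower, beside 2.51% and 17.1% of all transcripts. With the upper quartile or trimmed means 12 were called higher and 2 lower, and with quantile normalization 11 higher and 0 lower. FN1, fibronectin, lay at 684 and 447 against 93.97, 68.8, 65.2 and 62.6 FPKM. COL12A1, a collagen found along fibrils, lay at 159.8 and 92.7 against 21.4, 9.03, 22.4 and 5.53 FPKM, and LOX, which crosslinks collagen, at 55.9 and 39.1 against 10.9, 7.03, 10.2 and 6.41. The fibrillar collagen COL3A1 was not called, at 464 and 586 against 424, 148, 197 and 59.2 FPKM, with HEN replicate 1 just below HEN replicate 2. LAMA1, a laminin chain of basement membranes, was called lower at 1.83 and 2.48 against 13.5, 13.3, 12.4 and 8.44 FPKM. The theca and stroma list, which shares 9 of its 14 tested genes with other lists, had 2 of 14 called in each direction: LUM and TNC higher, CYP17A1 and FMOD lower. LUM, the collagen-binding lumican, lay at 106 and 66.5 against 24.4, 24.05, 23.1 and 14.2 FPKM.

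Many macrophage genes and some lysosome genes were higher. Of 13 tested macrophage markers 7 were called higher and none lower, 12 lay above without overlap (19.6% of all transcripts did), none was at 0 throughout either set, and their summed FPKM was 1716 and 1939.5 against 463 to 915. LY86, a partner of a Toll-like receptor homologue, lay at 262 and 319 against 50.4, 59.01, 83.6 and 50.2 FPKM. SPI1, the myeloid master regulator PU.1, lay at 53.5 and 78.9 against 20.6, 12.6, 20.9 and 11.05 FPKM. MARCO, a scavenger receptor of macrophages, lay at 139 and 135 against 53.9, 20.7, 37.6 and 15.1 FPKM. The part of macrophages in the levels of the matrix enzymes, which lay higher in the same libraries, was not tested. Lysosomal genes gave 6 of 25 called higher (24%, beside 2.51% of all transcripts), 11 after scaling to the upper quartile and 3 after quantile normalization. CTSL, the lysosomal protease cathepsin L, lay at 1451 and 991 against 140.2, 211, 273 and 177 FPKM, and LGMN, legumain, at 486 and 436 against 81.6, 123, 169 and 96.8. NPC1, which exports cholesterol from lysosomes, lay the other way without a call, at 64.9 and 80.5 against 209, 173, 202 and 127 FPKM.

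Vessel genes showed smaller gaps on the same side. Of 18 tested endothelial markers 4 were called higher (2.51% of all transcripts were), none lower, and 12 lay above without overlap (19.6% of all transcripts did). VWF, the clotting factor stored by endothelium, lay at 108 and 111 against 34.5, 11.6, 46.2 and 13.8 FPKM, and LYVE1, a hyaluronan receptor of lymphatic vessels and some macrophages, at 80.2 and 40.5 against 16.99, 9.41, 9.12 and 9.93. Blood cell markers varied: 2 of 7 heterophil genes (MMP9 and IL8), 2 of 4 thrombocyte genes (ITGB3 and F13A1) and 1 of 5 red cell genes (GYPC) were called higher, beside 2.51% of all transcripts. Without HEN replicate 2, with HEN replicate 3 alone as DDX4-poor, the counts were 4 of 7, 3 of 4 and 5 of 5. The hemoglobin gene HBM lay at 97.9 and 496 against 36.4, 77.8, 35.3 and 90.2 FPKM, highest in HEN replicate 3. Lymphocyte markers gave no call among 14 tested, or 2 lower without HEN replicate 3, with a summed FPKM of 167 and 212 against 148 to 325.

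Beside 2.51% higher and 17.1% lower over all transcripts, inflammation genes held 4 of 23 higher (17.4%) and 2 lower, and without HEN replicate 3 4 were lower. SOCS3, which brakes cytokine signals, lay at 32.02 and 29.8 against 9.04, 6.78, 10.2 and 7.02 FPKM, whereas its relative SOCS1 was called lower at 4.27 and 3.695 against 25.1, 34.4, 27.8 and 61.3. Hypoxia and glycolysis genes held 3 of 21 higher (14.3%) and 1 lower. The higher count was 7 with the upper quartile, trimmed means or without HEN replicate 3, and 6 with quantile normalization. HIF1A, the oxygen-sensing transcription factor, lay at 99.7 and 106 against 32.4, 37.5, 43.1 and 28.9 FPKM, and LDHB, a lactate dehydrogenase subunit, at 126 and 121 against 739, 677, 626 and 1279. Of 24 apoptosis genes 2 were called higher and none lower. BMF, a pro-death BCL2 relative, lay at 51.02 and 52.7 against 6.604, 10.5, 16.5 and 10.1 FPKM, and CASP6, an executioner caspase, at 32.6 and 26.9 against 9.35, 7.93, 7.58 and 6.24. Immediate early genes held 1 of 17 higher, KLF6, and 3 to 5 after rescaling. Heat shock genes held 7 of 22 lower (31.8%), but 2 after each rescaling, with HSPH1 at 12.5 and 17.3 against 106, 116, 103 and 128 FPKM.

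Growth factor signalling of the TGF-beta family had 5 of 35 called lower (14.3%) and 1 higher (2.86%), close to the 17.1% and 2.51% of all transcripts. Up to 3 were higher after rescaling. NOG, a secreted antagonist of bone morphogenetic proteins, lay at 7.696 and 4.33 against 44.97, 46.5, 39.2 and 50.3 FPKM. GDF10 lay at 9.05 and 0.343 against 36.9, 45.3, 29.2 and 87.9 FPKM, and TGFB2, the gene called higher, at 13.9 and 9.57 against 4.06, 3.71, 3.77 and 4.15. Among 20 tested hormone receptors 1 was called lower (5%, beside 17.1% of all transcripts) and none higher. It was the mineralocorticoid receptor gene NR3C2, at 2.27 and 2.68 against 17.2, 24.9, 16.7 and 27.5 FPKM. With a pseudocount of 0.1 the list gave 4 lower and 1 higher, with the upper quartile 1 and 2, with quantile normalization 1 and 3, and without LEN replicate 1 3 and 1. The progesterone receptor gene PGR lay at 17.2 and 19.04 against 19.2, 17.4, 20.004 and 8.55 FPKM with overlapping sets.

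General cell machinery and smooth muscle genes mostly stayed on the near side of the limit. No gene was called among 61 genes of the cytosolic ribosome list, 29 of the proteasome list or 12 smooth muscle genes. At the same gap, no other scaling, filter, pseudocount or left-out library called more than 1 of any of these lists in either direction. Without a minimum gap, 2 genes of the cytosolic ribosome list lay below without overlap and 21 above, beside 47.5% and 19.6% of all transcripts. The 2 below were RPL7L1 and RPS19BP1, which are not core ribosomal protein genes and entered by the prefix of their symbols. The proteasome list held 10 below and 3 above, and the smooth muscle list 2 and 3. Among the 10 was PSMC3IP, a meiotic recombination factor and no proteasome subunit, which entered by the prefix of its symbol. Beside 17.1% of all transcripts, those called lower were 2 of 49 nuclear oxidative phosphorylation genes, 2 of 33 splicing genes (4 without HEN replicate 3) and 1 of 7 histone genes. The 2 oxidative phosphorylation genes, NDUFAF4 and NDUFAF6, encode assembly factors and no subunits. Mitochondrial ribosomal proteins gave 7 of 52 called lower (13.5%, near the same 17.1%), which was 3 after scaling to the upper quartile and 18 without HEN replicate 2. Under these settings 1609 and 2709 of all 13328 transcripts were called lower. Without a minimum gap, 42 of these 52 lay below without overlap, as did 23 of 33 splicing and 20 of 49 oxidative phosphorylation genes. The share of all transcripts was 47.5%. Zinc finger genes held 12 of 97 lower (12.4%, beside 17.1% of all transcripts), a count of 6 after scaling to the upper quartile, 1 after quantile normalization and 19 without HEN replicate 3. Solute carriers held 29 of 208 lower (13.9%) and 8 higher, which became 19 and 16 with the upper quartile and 13 and 25 with quantile normalization. The balance also moved over all transcripts, from 2273 lower and 335 higher to 1609 and 682 and to 1176 and 832. SLC26A3, a chloride and bicarbonate exchanger, was the solute carrier with the widest gap above, at 25.03 and 45.4 against 0.233, 0.576, 1.095 and 1.69 FPKM. No transcript was tested from the oviduct secretory list, of which 3 had a row.

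The DDX4-poor libraries were much alike but not identical. They lay at least 1 log2 unit apart in 667 transcripts (5.0%), within the 3.59% to 10.1% seen between pairs of DDX4-rich libraries, while pairs across the sets did so in 32.0% to 47.1%. MMP7, the matrilysin of epithelia, differed most. MMP7 measured 736 and 4.504 FPKM in the DDX4-poor and 0, 0.27002, 2.41 and 1.13 FPKM in the DDX4-rich libraries. HEN replicate 2 alone was high, so that MMP7 was not called. COL9A1, a collagen of cartilage and eye, lay at 105 and 0.937 FPKM, and the chemokine gene CXCL14 at 16.2 and 0.516, again with HEN replicate 2 above. In the other direction ACTG2, the actin of visceral smooth muscle, lay at 35.9 and 483 FPKM and the secreted neural protein gene NELL2 at 18.8 and 117. In the DDX4-rich libraries ACTG2 lay at 377, 199, 69.5 and 61.8 FPKM, so the sets overlapped. Among transcripts called lower, HEN replicate 3 stood at least 1 unit above HEN replicate 2 in 77 and the reverse held in 24. Over all transcripts these counts were 389 and 278, and among those called higher 6 and 18.

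The DDX4-rich libraries had an order too. Over the 2273 transcripts called lower, LEN replicate 3 was the highest of the 4 in 65.2% and LEN replicate 2 the lowest in 46.6%. Over all transcripts these shares were 36.3% and 25.1%. HEN replicate 1 was the lowest in 26.2% and the highest in 11%, and was inside the range of the LEN libraries in 62.7%. Over all transcripts its shares were 20.3%, 20.6% and 59.1%. Over the 335 transcripts called higher the order was turned around: LEN replicate 2 was the highest in 55.5% and LEN replicate 3 the lowest in 56.4%. These shares were 24.1% and 33.2% over all transcripts. The sets were chosen by a gap between the DDX4-poor libraries and this range, and the shares are given as a description.

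**Figure D5:**
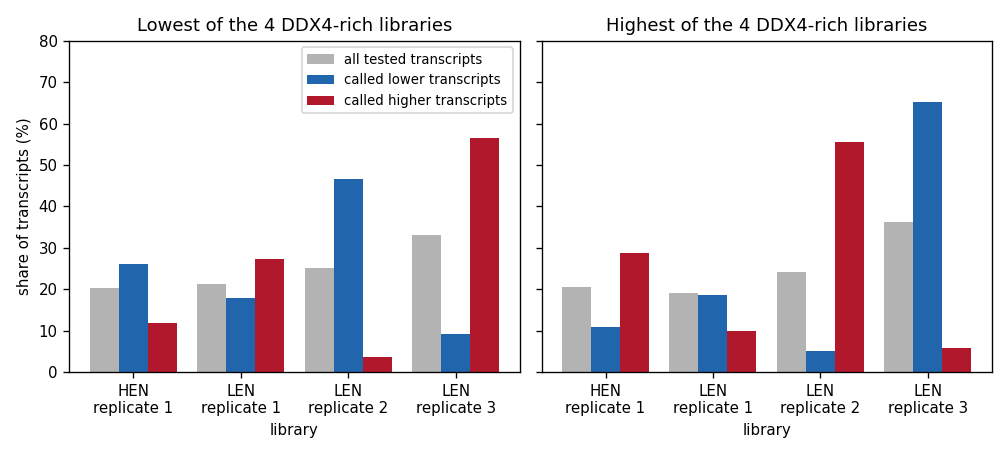
Bars give the percent of transcripts in which each DDX4-rich library was the lowest (left) or the highest (right) of the 4, for all tested transcripts (grey), those called lower (blue) and those called higher (red). LEN replicate 3 was highest in 65.2% of transcripts called lower and lowest in 56.4% of those called higher, and LEN replicate 2 showed the opposite order.

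Egg number itself was tested with limma. Both DDX4-poor libraries are HEN and no LEN library is DDX4-poor, so a fit without the DDX4 class mixes egg number with the DDX4 split. HEN against LEN over all 6 libraries gave 0 of 13328 transcripts (0.0%) past an adjusted p of 0.05 in limma with Benjamini-Hochberg adjustment, while 2929 had an unadjusted p below 0.05. With the DDX4 class as a further term, so that HEN and LEN are compared between libraries of the same class, 1 transcript passed (0.0075%), with 409 at an unadjusted p under 0.05. The egg number difference in that fit rests on HEN replicate 1 against the 3 LEN libraries, so the lone HEN library is assumed to vary like the others and the p measures no spread between HEN ducks. The transcript is an unnamed pseudogene, ENSAPLT00000007367, on scaffold KB805859.1 from 99 to 396, and was higher in HEN replicate 1, at 339 FPKM, than in the LEN libraries, at 27.8, 27.3 and 31.4. The DDX4-poor libraries lay between, at 88.3 and 82.8 FPKM. The difference was 3.51 log2 units, and ranged from 3.476 to 3.709 over the alternatives that kept the transcript in the fit. On simulated data the same fit called 1 of 13128 unchanged transcripts, so a single call can be a false one. None of the germ line, steroid, matrix or macrophage genes named above passed in this fit.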

How the data were processed

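Ovarian tissue of 6 ducks (3 HEN, 3 LEN) was sequenced as RNA. The authors deposited FPKM values in a table of 17191 rows, named by Ensembl duck transcript and placed on scaffolds. The rows held 17169 transcripts of 16450 genes, because 22 were repeated with the same values and used as 1 row. The aligner, counter, strand setting and genome build are not given in the sources used here, and 1367 tested transcripts overlap another gene's position, so that their fragments cannot be told apart. Of these, 11101 carry a symbol in the table and 710 more got one through Entrez identifiers from RefSeq's gene table of assembly IASCAAS_PekinDuck_T2T, which leaves 5358 without a name. Near-identical family members may share fragments.

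Values were analysed as log2(FPKM + 1), which understates differences of low genes, for the 13328 transcripts that averaged 1 FPKM or more. Depth was inferred from steps between values of short noncoding genes (968 of 968 values under 200 fragments were whole within 0.02), and intervals and limits from fragments cover counting error only. A member that passed the filter only through the set where it is high had to differ. The share over all transcripts is printed beside list counts, and it does not remove this selection. A list median is the median over its tested members of the midpoint of the DDX4-poor minus the median of the DDX4-rich libraries.

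The DDX4 sets, 41 gene lists, the call rule and the rule for named genes were chosen with earlier results of these data known. Named were DDX4 and ZP4, the 15 widest gaps per direction with a symbol on 1 row, up to 4 members per list in its commoner direction and 2 in the other, transcripts past an egg number fit, and the 5 widest gaps per direction between the DDX4-poor libraries. Some of the genes named by this rule are not reported here. Kinases of the RPS6K family were taken out of the ribosome list. The cytosolic ribosome, mitochondrial ribosome, proteasome, oxidative phosphorylation, splicing, histone, solute carrier and zinc finger lists were drawn by symbol prefix. They still hold genes such as RPL7L1, RPS19BP1, PSMC3IP and the assembly factor genes NDUFAF4 and NDUFAF6.

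The egg number groups were tested in limma 3.58.1 under R 4.3.3 (trend, Benjamini-Hochberg adjustment, threshold 0.05), with and without DDX4 class as a term. On simulated data for the fit with that term, 0%, 0%, 16% and 42% of transcripts changed by 1.5, 2, 4 and 8 fold were recovered. Of 13128 unchanged transcripts 1 was called. No label names a sequencing batch. Deviations from the group means of ducks that share a replicate number correlated at r = 0.017, 0.382 and −0.423 across transcripts. HEN replicate 2 correlated best with its own number, and HEN replicates 1 and 3 did not. The HEN deviations hold the split by DDX4, so these values cannot decide whether the numbers pair samples. Alternatives were other pseudocounts, filters and scalings, a replicate block, protein-coding rows alone (chosen after seeing the data) and leaving out each library.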

Additional observations from a re-analysis of the deposited data

How the results depend on the processing

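Counts of transcripts called lower and higher depended most on the gap and the scaling. With no gap asked beyond a lack of overlap they were 6332 and 2608, and with a gap of 2 log2 units 812 and 47. Scaling by trimmed means gave 1601 and 704 and quantile normalization 1176 and 832, with lower calls at 69.5% and 58.6% of all calls, and the upper quartile gave 682 higher. The other filters and the pseudocount of 0.1 kept both counts within 1.5 times. Leaving out 1 library gave 2353 to 2779 lower and 354 to 601 higher, the highest without HEN replicate 2 (601) and HEN replicate 3 (578).

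List medians relative to all transcripts changed sign in few cases, and the causes were not tested. The granulosa list was at −1.083 with a mean of at least 5 FPKM and from −0.022 to 0.247 when 1 library was left out (lowest without HEN replicate 2). The histone list was at 0.168 with that filter and 0.27 with quantile normalization, where the cytosolic ribosome list was at −0.209. Zinc fingers were at −0.001 with no filter. Oxidative phosphorylation ranged from −0.179 to 0.139 when 1 library was left out, at or above 0 without any 1 of LEN replicate 3, HEN replicate 1 and HEN replicate 3. Differences were recomputed for the called genes of the naming rule, and among these none reversed, while 565 of the recomputed values moved by more than the spread and 1192 did not. These genes were called for a gap of at least 1 log2 unit in the same data, and leaving out a library cannot narrow a gap. The lack of reversals is therefore no test of them. Genes not called, or outside that rule, were not recomputed.

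HEN against LEN gave 0 to 6501 transcripts past the threshold in limma when 1 library was left out, and the 6501 came without HEN replicate 1, where the HEN group is the pair chosen by DDX4 and the count is no test of egg number. It gave 1 without HEN replicates 2 and 3 together and 1 with a pseudocount of 0.1. With DDX4 class as a term the count was 2 with a pseudocount of 0.1 or the upper quartile, 3 with a mean of at least 5 FPKM, 4 with no filter and 0 over protein-coding rows, a choice made after seeing the data. It ranged from 1 to 3 when a library was left out, and without HEN replicate 1 it could not be fitted. With the replicate number as a block HEN against LEN gave 0 and the fit with DDX4 class gave 39, with 1 residual degree of freedom. Whether the replicate numbers pair samples could not be decided, and not every sample correlated best with its own number.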
